A study of Homo sapiens with 38 samples.

Results

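The entries described here are the box C/D and box H/ACA small nucleolar RNAs (snoRNAs) measured in RKO cells. They were chosen by name and by level: the ID had to start with SNORD or SNORA and a digit, be unique in the table, and have an FPKM above 0 in at least 1 of 8 libraries. FPKM is fragments per kilobase of transcript per 1000000 mapped fragments. Of 383 such IDs, 154 met the rule, 72 of 276 C/D entries and 82 of 107 H/ACA entries. They stand among 25504 unique IDs, of which 17976 were above 0 in at least 1 library. FPKM values chose the entries, and each condition had 1 library, so all values are given as a description and no test between conditions was run. The entries nearest the rule were SNORD58B, with a highest FPKM of 4.09e-28, and SNORD86, with 2.36e-18. The next was SNORA53 at 0.666 FPKM, and outside the rule 229 entries were listed at 0 in all libraries.

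snoRNAs are short noncoding RNAs that mostly sit in introns of host genes and are released when the intron is spliced and trimmed. Box C/D snoRNAs, named for the C and D boxes near their ends, guide 2′-O-methylation of ribosomal RNA by fibrillarin, and box H/ACA snoRNAs guide pseudouridylation by dyskerin. A few, such as U3 and U14, are needed for cutting the ribosomal RNA precursor rather than for guiding a modification alone.

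RKO is a human colorectal cancer cell line. Cells received DMSO, the LSD1 inhibitor NCD38, or NCD38 joined to a pyrrole-imidazole polyamide, NCD38-β2P4 or NCD38-β2PIPP, and were harvested after 4 or 30 days of treatment. The labels give a compound concentration of 2 µM with 0.1% DMSO and fresh medium every 5 days, whereas the study's methods give 2 mM for day 4. All cells are of this 1 line, and libraries were made with a stranded mRNA kit that selects polyadenylated RNA, which mature snoRNAs lack. Values are given below in the order DMSO, NCD38, NCD38-β2P4 and NCD38-β2PIPP.

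The sequences of 5 entries that the results turn on are shown first, because their length decides how their FPKM reads. They were read from GRCh37 at the positions of GENCODE release 44. SNORA12 was above 0 on day 30 alone, and SNORA70 and SNORA10 were the H/ACA entries with the next most fragments. SNORD36A and SNORD68 held the highest single FPKM values of the 154. In capitals are the ACA of H/ACA entries that stands 2 to 4 bases before the 3′ end, and in C/D entries TGATGA (C box) and CTGA (D box), which start within the first or last 15 bases. SNORD36A has no TGATGA in that window.
SNORA12: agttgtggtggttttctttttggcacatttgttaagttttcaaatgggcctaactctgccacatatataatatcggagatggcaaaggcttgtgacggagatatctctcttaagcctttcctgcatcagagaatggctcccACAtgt
SNORA70: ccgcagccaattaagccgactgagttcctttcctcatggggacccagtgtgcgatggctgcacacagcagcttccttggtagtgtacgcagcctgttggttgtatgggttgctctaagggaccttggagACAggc
SNORA10: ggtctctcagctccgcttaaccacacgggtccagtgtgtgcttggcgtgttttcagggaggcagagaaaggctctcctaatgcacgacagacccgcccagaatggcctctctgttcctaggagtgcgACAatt
SNORD36A: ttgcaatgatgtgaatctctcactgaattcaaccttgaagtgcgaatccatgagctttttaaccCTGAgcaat
SNORD68: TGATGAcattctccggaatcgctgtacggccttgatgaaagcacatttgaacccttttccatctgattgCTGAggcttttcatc

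SNORA12 lies at chr10:101996913-101997059 on the minus strand in an intron of CWF19L1. SNORA70 lies at chrX:153628622-153628756 on the plus strand in RPL10, and SNORA10 at chr16:2012335-2012467 on the minus strand in RPS2, both genes of ribosomal proteins. SNORD36A lies at chr9:136217311-136217383 in RPL7A and SNORD68 at chr16:89627842-89627925 in RPL13, both on the plus strand and in ribosomal protein genes. The 4 entries other than SNORA12 overlap an annotated exon of at least 1 transcript of the host. Among C/D entries with a position, 74.1% of 228 had the C box letters and 92.5% had the D box letters in these windows. Among 82 H/ACA entries, 85.4% had the ACA. C/D entries above 0 held the C box letters in 66.7% and those at 0 in 76.4%, while for the ACA the shares were 85.2% and 85.7%.

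The FPKM of these short RNAs moved in steps. For 136 of the 154 entries, every value above 0.001 was a whole multiple, within 0.01%, of the FPKM that 1 fragment would have, with fragment lengths of 200 ± 80 nt (mean ± SD) and a smallest length of 32 nt in the 4 day 30 libraries and 49 nt in the 4 day 4 libraries. From the size of the step, libraries held about 19800000, 18200000, 13500000 and 24900000 fragments on day 30 and 18900000, 14300000, 13800000 and 15300000 on day 4. With a larger smallest length, fewer positions remain on a short transcript, and each fragment carries more FPKM. For a 72-nt RNA, 1 fragment stood for 58.4 to 107 FPKM on day 30 and for 170 to 233 FPKM on day 4. For a 133-nt RNA, the ranges were 5.74 to 10.5 and 8.84 to 12.1 FPKM. C/D entries, which are the shorter class, therefore had the coarser scale, and the same number of fragments was listed as a higher FPKM on day 4. A count of 0 allows an expected count of up to 3 fragments. For a 72-nt RNA that was 175 to 322 FPKM on day 30 and 509.9 to 698 FPKM on day 4. An FPKM listed at exactly 0 may also be a failed estimate, and then this limit does not hold.

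The number of fragments behind a value was small. The 136 entries had 506 values above 0, of which 186 were 1 fragment, 357 were 1 to 3 fragments and 49 were 10 or more. Over all 8 libraries, the median entry had 6 fragments, and 33 entries had 1 fragment in total. On day 4, 52.9% of the C/D values above 0 were single fragments, against 37.6% on day 30, and for H/ACA the shares were 38.02% and 26.8%. In all, 2258 fragments were recovered, and 49.5% of them belonged to 10 entries: SNORA12 (268), SNORA70 (176), SNORA10 (117), SNORA67 (98), SNORA61 (93), SNORD22 (84), SNORA63 (80), SNORA76 (76), SNORA8 (70) and SNORD36A (55). For 94 entries only 1 length between 55 and 300 nt gave whole fragments, and for 42 several did, with different totals. There the length nearest to the annotation was taken, or the one with the fewest fragments where no position was known, and it gave the lowest total in all 42. SNORD36A, for example, read as 55 fragments at 72 nt or as 5555 at another length. Of 107 entries with an annotated length, 57 were read at that length and 91 within 5 nt of it. SNORD68 was read at 72 nt and is annotated at 84 nt, and SNORD58C was read at 90 nt and is annotated at 64 nt. Fragments are thus read back from the FPKM, and depend on this fit. Intervals below cover counting error only.

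Detection differed by library and by class. On day 30, 82, 85, 66 and 101 entries were above 0, and on day 4, 76, 60, 63 and 79. H/ACA entries outnumbered C/D entries in all day 30 libraries, with 53, 57, 40 and 64 against 29, 28, 26 and 37. On day 4 the classes were nearer each other, with 41, 30, 29 and 44 H/ACA entries against 35, 30, 34 and 35 C/D entries. The count was highest in the NCD38-β2PIPP library of day 30, which was also the deepest, and lowest for day 30 in the NCD38-β2P4 library, the shallowest of that day. How much depth contributed to these counts was not tested. Only 19 entries, 8 C/D and 11 H/ACA, were above 0 in all 8 libraries, and 37 were above 0 in 1 library. By day, 89 entries were above 0 on both days, 34 on day 30 alone and 31 on day 4 alone. The day 4 group was mostly C/D, with 23 of 31, and the day 30 group was split, with 16 C/D and 18 H/ACA. The 33 entries with 1 fragment in total can only fall on 1 day alone, and SNORD58B was on day 4 alone with at most 4.09e-28 FPKM. The share of all IDs above 0 on 1 day alone was not computed. A total of 21 values in 6 entries were above 0 but no higher than 0.001 FPKM, far below what 1 fragment gives.

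Several of the well known entries were at 0, or near or below what 1 fragment gives, in most libraries. None of the 115 entries of the imprinted clusters, 8 SNORD113, 31 SNORD114, 47 SNORD115 and 29 SNORD116, was above 0 in any library. SNORD118 (U8), which acts in processing of large-subunit ribosomal RNA, had 38.2 FPKM with NCD38-β2PIPP and 4.53 FPKM with NCD38 on day 30, and at most 2.18e-12 FPKM in the other 6 libraries. SNORD13 (U13) had 2, 2, 1 and 2 fragments on day 30 and 0, 1, 1 and 0 on day 4. All 5 SNORD14 (U14) copies were above 0 somewhere, and none had more than 3 fragments in a library. SNORD14A reached 3 fragments, 66.9 FPKM, with NCD38-β2PIPP on day 30, and SNORD14E had its only fragment with NCD38-β2PIPP on day 4, listed as 112 FPKM. SNORA73A (U17), an H/ACA RNA of small-subunit ribosomal RNA processing, had 24.5, 36.6, 15.7 and 19.5 FPKM on day 30 and 18.5, 29.9, 30.0 and 34.4 FPKM on day 4. Its values were not whole fragments, and the day 30 and day 4 ranges overlapped.

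SNORD22 (U22), which acts in small-subunit ribosomal RNA processing and lies in the noncoding gene SNHG1, was the C/D entry with the most fragments among those with whole fragments. Its FPKM was 175, 152, 141 and 216 on day 30 and 22.0, 0, 45.2 and 13.6 on day 4. Those values were 20, 16, 11 and 31 fragments and 2, 0, 3 and 1 fragments, so the days did not overlap. The U3 RNA, the most abundant C/D snoRNA of the cell and a part of the small-subunit processome, is split over 5 entries. SNORD3A had 250.1, 242, 290.3 and 370.1 FPKM on day 30 and 52.0, 106, 84.4 and 59.9 FPKM on day 4. SNORD3B-1, SNORD3B-2, SNORD3C and SNORD3D lay between 112 and 154 FPKM on day 30 and between 29.1 and 77.3 FPKM on day 4. SNORD3B-2 and SNORD3D had the same value in 7 of 8 libraries. The U3 copies are nearly identical, so their values are uncertain one by one and are not independent measurements. On day 4, NCD38 and NCD38-β2P4 were above DMSO and NCD38-β2PIPP in all 5 of them.

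H/ACA entries were led by SNORA12, SNORA70 and SNORA10. SNORA12 had 342, 328, 294 and 400.2 FPKM on day 30, from 68, 60, 40 and 100 fragments, and was listed at 0 in all 4 day 4 libraries. For its 147 nt, 3 fragments would be 17.9 to 24.5 FPKM on day 4. That limit holds only if a listed 0 is a count of 0 and not a failed estimate. CWF19L1, the host gene, was at 5.65 to 7.59 FPKM on day 30 and at 8.75 to 13.8 FPKM on day 4, the reverse order. SNORA70 had 144, 223, 169.8 and 228 FPKM on day 30 and 199.9, 87.8, 171 and 196 FPKM on day 4, and SNORA10 had 64.9, 180.1, 127 and 132 FPKM and then 133, 105, 84.8 and 208 FPKM. Neither of these separated the days, and the lowest SNORA70 value was 8 fragments and the highest 42. SNORA48, which lies in the translation factor gene EIF4A1, varied least among entries above 0 in all libraries, with a highest value 1.78 times the lowest and 3 to 7 fragments. SNORA84, in IARS, followed with 2.23 times.

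A group of H/ACA entries was high on day 30 and low on day 4. SNORA61 had 141, 136, 137 and 193 FPKM on day 30, and then 19.4, 76.6, 79.7 and 24.0 FPKM. SNORA63, in EIF4A2, had 75.2, 111, 169.8 and 147 FPKM and then 25.0, 21.9, 11.4 and 41.3 FPKM, the widest range of a whole-fragment entry above 0 throughout, at 14.9 times. SNORA8, in TAF1D, had 61.5, 107, 108 and 127 FPKM and then 0, 9.77, 10.2 and 36.7 FPKM. In each of these 3 entries the lowest day 30 value was above the highest day 4 value. SNORA76, with 62.6 to 129.8 FPKM on day 30 and 36.3 to 81.6 FPKM on day 4, and SNORA67, with 51.9 to 160 and 41.4 to 118 FPKM, did not separate the days. SNORA4, also in EIF4A2, had 38.9, 106, 66.3 and 20.6 FPKM on day 30 and 15.7, 0, 0 and 19.5 FPKM on day 4, so the days were apart by little.

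The highest FPKM belonged to short C/D entries of day 4. SNORD36A was listed at 0 in all 4 day 30 libraries and at 2889, 2240, 2328 and 3789 FPKM on day 4. These values were 17, 10, 10 and 18 fragments of a 72-nt RNA. RPL7A, its host, was between 7919 and 9358 FPKM on day 30 and between 6246 and 8840 FPKM on day 4. SNORD68 had 0, 79.8, 107 and 0 FPKM on day 30 and 679.8, 1119.9, 1629 and 421 FPKM on day 4, from 0, 1, 1 and 0 fragments and 4, 5, 7 and 2 fragments. SNORD104 was above 0 on both days, with 144, 0, 141 and 383 FPKM and then 725, 120, 373 and 786 FPKM. Its fragments, 3, 0, 2 and 10 against 8, 1, 3 and 7, overlapped between days although most of its FPKM lay on day 4. Of 2 entries with the opposite pattern, SNORD21 in RPL5 had 6, 4, 7 and 15 fragments on day 30 and SNORD58C in RPL17 had 1, 4, 6 and 3, and both were at 0 on day 4.

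Summed over a class, FPKM and fragments gave different orders of the days. The FPKM of all C/D entries summed to 2094, 2088, 2659 and 3104 on day 30 and to 8073, 7131, 8921 and 9330.1 on day 4. The C/D entries with whole fragments held 67, 61, 55 and 124 fragments on day 30 and 68, 49, 60 and 71 on day 4. Per 1000000 mapped fragments (FPM), this was 3.35 to 4.99 on day 30 and 3.42 to 4.65 on day 4, so the days overlapped in fragments while they were apart in FPKM. For H/ACA, the FPKM summed to 1768, 2405, 1985 and 2677 on day 30 and to 1078, 849, 881 and 1375 on day 4. Their FPM were 13.6, 18.3, 15.1 and 20.7 on day 30 and 6.35, 5.09, 5.07 and 7.80 on day 4, so here both scales put day 30 above day 4. Between the DMSO libraries, the H/ACA ratio of day 30 to day 4 was 2.14 (95% counting interval, 1.72 to 2.68), and 1.60 with SNORA12 left out. The C/D ratio was 0.942 (0.662 to 1.34) in FPM, whereas the ratio of FPKM sums was 0.164 over the same whole-fragment entries and 0.259 over all C/D entries. The smallest fragment length differed between the same sets of libraries as the day. The 2 cannot be told apart in a difference between days, in FPKM or in FPM.

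Of the 154 entries, 22 had all 4 day 30 libraries above all 4 day 4 libraries, against 25.3% of all 17976 IDs above 0, and 6 had the reverse, against 22.0% of these IDs. Both shares of the entries, 14.3% and 3.90%, were below that background. An entry above 0 in fewer than 4 libraries could not meet either count. The median entry was above 0 in 4 libraries, and the median C/D entry in 3. How much these zeros contributed to the low shares was not tested. The 22 include the 5 U3 copies and SNORD118, whose day 4 values and 2 of whose day 30 values were below 0.001 FPKM. The 6 include SNORD58B, which was below 0.001 FPKM in all libraries. The 22 were 9 C/D and 13 H/ACA entries and the 6 were 5 C/D and 1 H/ACA. Counted in FPM, 19 and 4 of the 136 whole-fragment entries separated the days, of which 15 and 4 were also in the FPKM counts. SNORD33, SNORD36A and SNORD68 were among the 4 higher on day 4. The 22 entries included 13 with a host gene in the annotation, in 12 genes, and 8 of these hosts were themselves higher in all day 30 libraries: EIF4A2, IPO7, RPL17, RPL21, RPL27A, RPL5, RPS12 and TAF1D. CWF19L1 was the only 1 of the 12 that was lower in all of them. TAF1D, a subunit of the RNA polymerase I factor SL1, was at 51.4 to 60.2 FPKM on day 30 and at 1.07 to 4.15 FPKM on day 4. EIF4A2 was at 98.4 to 119 and at 9.44 to 44.2 FPKM.

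Members with a host gene numbered 103, in 68 genes, and their FPKM was usually below that of the host. They exceeded it in 6, 11, 6 and 12 cases on day 30 and in 7, 7, 5 and 8 on day 4. The hosts of entries above 0 had a median of 901, 414, 951 and 269 FPKM on day 30, against 129.9, 212, 247 and 214 FPKM for those at 0. On day 4 the medians were 1372, 767, 1324 and 809 FPKM against 97.6, 169, 106 and 209 FPKM, so in all 8 libraries entries above 0 had the higher hosts. A high host did not mean an entry above 0, since 31 to 49 entries per library were at 0 with a host of at least 10 FPKM. TAF1D held the most members, 5, and RPL13A and RPL7A held 4 each. Of the 103, 60 overlapped an annotated exon of the host and 43 were wholly intronic. In these bulk libraries, a fragment of a host transcript that covers the snoRNA cannot be told apart from the snoRNA itself.

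With the inhibitors, entries were compared with the DMSO library of the same day as the log2 ratio of FPKM plus 1, and a difference of at least 2-fold was counted. On day 30, NCD38 had 35 entries higher, against 0.629% of all IDs, and 19 lower, against 0.412%. NCD38-β2P4 had 20 higher (all IDs, 0.395%) and 29 lower (0.306%), and NCD38-β2PIPP had 46 higher (0.545%) and 14 lower (0.234%). On day 4, NCD38 had 30 higher (0.556%) and 39 lower (2.80%). NCD38-β2P4 had 32 higher (0.718%) and 35 lower (0.534%), and NCD38-β2PIPP had 34 higher (6.29%) and 26 lower (0.562%). Between the DMSO libraries, 47 were higher on day 30 (15.3%) and 35 lower (10.6%). Where lower entries outnumbered higher ones, the balance depended on the zeros. Among entries above 0 in both libraries, NCD38-β2P4 had 9 higher and 3 lower on day 30, NCD38 had 12 and 4 on day 4, and NCD38-β2P4 had 12 and 2 on day 4. In fragments plus 1 per 1000000, NCD38-β2P4 had 18 higher and 9 lower on day 30 and 23 higher and 14 lower on day 4, while NCD38 on day 4 had 19 and 21. The added fragment weighs more per 1000000 in a shallower library, and these inhibitor libraries were shallower than their DMSO library. This scale therefore tilts the balance to higher, and does not show what the balance rested on. The shares of entries, 31.8% to 44.8% per inhibitor in both directions together, were far above these backgrounds, and most of the differences rested on a 0: 37 of 54, 37 of 49 and 37 of 60 on day 30 and 53 of 69, 53 of 67 and 53 of 60 on day 4. Among the differences with whole fragments, 40 of 47, 38 of 45 and 39 of 52 on day 30 and 59 of 63, 54 of 57 and 53 of 55 on day 4 had 5 or fewer fragments in both libraries together. These differences thus rested on a few fragments each. On FPKM plus 1, 1 fragment against 0 passes 2-fold wherever 1 fragment stands for 1 FPKM or more. An ID below 1 FPKM in both libraries cannot pass it, so the shares of all IDs are not a like-for-like background.

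Entries above 0 in both libraries gave the few ratios that could be formed. Their median log2 ratio on day 30 was 0.37 for NCD38 over 65 entries, -0.01 for NCD38-β2P4 over 55 and 0.46 for NCD38-β2PIPP over 72. On day 4 it was 0.38, 0.42 and 0.27 over 41, 43 and 51 entries, and 0.72, 0.31 and 0.07 after rescaling each library by its median ratio. The medians of all IDs above 0 in both were 0.03, 0.05 and 0.00 on day 30 and -0.13, 0.07 and 0.13 on day 4. The comparisons of a day share their DMSO library. An entry with 1 fragment in either compared library can hardly be lower in the other without leaving the count. Equal numbers of fragments are also listed as unequal FPKM. For a 133-nt RNA, 1 fragment stood for 7.21 FPKM in DMSO and for 7.83, 10.5 and 5.74 FPKM with the inhibitors on day 30. On day 4 it stood for 8.84 FPKM in DMSO and for 11.7, 12.1 and 10.9 FPKM. How much this contributed to the medians was not tested. Among the 24 most extreme ratios, 16 came from entries with whole fragments, and in 12 of these the higher library had no more than 6 fragments. The 95% counting interval of the ratio of FPM left out 1 in a single case, SNORD58C with NCD38-β2P4 on day 30, at 6 fragments against 1 (ratio 8.77, interval 1.06 to 403). These ratios were picked as the most extreme of the same data, and the intervals make no allowance for that choice. The fragments of SNORD58C were read at 90 nt, and it is annotated at 64 nt.

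The largest ratios with NCD38 on day 30 were those of SNORA17, whose values were not whole fragments, and of SNORA52, in RPLP2, at 45.7 against 7.02 FPKM, 6 fragments against 1. The lowest were SNORD35A at 39.4 against 109 FPKM, 1 fragment against 3, and SNORA76 at 62.6 against 129.8 FPKM, 8 against 18. SNORA76 had the most fragments of these, and its FPM ratio of 0.482 had an interval of 0.182 to 1.17. With NCD38-β2P4 on day 30, SNORD15B was at 37.7 against 5.16 FPKM, 5 fragments against 1, and SNORD17, in SNX5, at 1.44 against 8.89 FPKM, 1 against 9. With NCD38-β2PIPP on day 30, SNORD15B was again high, at 32.8 FPKM and 8 fragments, and SNORA11B was low, at 6.78 against 17.1 FPKM and 1 fragment against 2. The intervals of all 7 whole-fragment ratios in this group included 1.

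On day 4, SNORA61 was among the highest ratios for both NCD38 and NCD38-β2P4, at 76.6 and 79.7 FPKM against 19.4 FPKM in DMSO, 6 and 6 fragments against 2. With NCD38, SNORD104 had the lowest ratio, at 120 against 725 FPKM, 1 fragment against 8. SNORA62, in the laminin receptor gene RPSA, had 4 fragments in DMSO and 1 with NCD38. With NCD38-β2P4, SNORA63 had 1 fragment against 3. With NCD38-β2PIPP, SNORA71B was at 60.1 against 8.09 FPKM, 6 fragments against 1, and SNORA64 was at 10.6 against 34.3 FPKM, 1 against 4. All of these intervals included 1.

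Class totals rest on more fragments than single entries. On day 30, H/ACA FPM relative to DMSO were 1.34 times with NCD38 (95% counting interval, 1.14 to 1.58), 1.11 times with NCD38-β2P4 (0.919 to 1.33) and 1.52 times with NCD38-β2PIPP (1.31 to 1.77). On day 4 the ratios were 0.802 (0.591 to 1.08), 0.799 (0.586 to 1.08) and 1.23 (0.945 to 1.60). The C/D ratios were 0.988 (0.687 to 1.42), 1.1998 (0.824 to 1.74) and 1.47 (1.08 to 2.01) on day 30, and 0.950 (0.644 to 1.39), 1.21 (0.840 to 1.74) and 1.29 (0.914 to 1.83) on day 4. NCD38-β2PIPP had the highest ratio of the 3 inhibitors for both classes on both days. These intervals compare 2 libraries each and say nothing of the spread between cultures.

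The 18 entries without whole fragments, 10 C/D and 8 H/ACA, were are reported as uncertain. They were the 5 U3 entries, SNORD103A and SNORD103B, SNORD118, SNORD58B and SNORD86 among C/D entries, and SNORA17, SNORA31, SNORA43, SNORA59A, SNORA59B, SNORA73A, SNORA7A and SNORA7B among H/ACA entries. Several are members of pairs or groups of close copies. SNORD103A and SNORD103B had 16.6 FPKM each in DMSO on day 30 and 0 elsewhere. SNORA59A and SNORA59B were equal in all 8 libraries. SNORA43 had 38.04 FPKM with NCD38-β2P4 on day 30, 8.33e-52 FPKM in DMSO on day 4 and 62.2 FPKM with NCD38-β2PIPP on day 4. SNORA17 had 43.7, 37.02, 0.0323 and 25.0 FPKM on day 4, and SNORA7A had 12.5 and 24.4 FPKM with DMSO and NCD38 on day 30 and 2.24e-52 with NCD38-β2P4. SNORA17 and SNORA43 gave 6 of the 24 most extreme ratios, all but 1 of them against a value far below 1 fragment.

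Length, which the rule did not use, went with detection over both classes together. By the GENCODE length, 18.4% of the 98 entries under 80 nt were above 0 and 22.5% of the 111 entries of 80 to 99 nt. The share was 42.3% of 26 entries of 100 to 129 nt and 81.3% of 75 entries of 130 to 300 nt. These shares keep the SNORD113 to SNORD116 clusters, in which no entry was above 0, and were not recomputed without them. They also do not separate length from class, since H/ACA entries are the longer class. Within the C/D class, the median length was 86 nt for 54 entries above 0 and 81 nt for 174 at 0, or 76.5 nt for 68 at 0 once the SNORD113 to SNORD116 clusters were set aside. H/ACA medians were 134 nt and 132 nt. The host genes of C/D entries above 0 had a median mean level of 2293 FPKM, against 18.0 FPKM for C/D entries at 0 and 56.4 FPKM without those clusters. For H/ACA the medians were 68.9 and 7.86 FPKM. The GC content was 47.3% and 42.3% for C/D entries and 48.5% and 48.9% for H/ACA entries. Positions were known for 315 of the 383 entries and 120 of the 154 members.

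Other short RNAs were set beside the snoRNAs. Above 0 were 40.2% of the snoRNA entries, 83.3% of 24 SCARNA entries (guides of the Cajal body), 74.2% of 31 RNU entries (spliceosomal and related RNAs), 3 of 5 RNY entries and 8.50% of 1365 MIR entries (microRNA precursors). In all 8 libraries were 12.3% of the snoRNAs above 0, 3 of 20 SCARNA, 60.9% of the RNU and 19.8% of the MIR entries. At least 2-fold from DMSO in either direction were 31.8% to 39.0% of the snoRNAs on day 30 and 39.0% to 44.8% on day 4. For the 162 other short entries together, the shares were 20.4% to 23.5% and 32.1% to 35.2%. SCARNA entries alone had 15% to 35% and 15% to 25%, and RNU entries 21.7% to 30.4% and 13.0% to 39.1%. MIR entries had 18.1% to 20.7% and 33.6% to 41.4%, and the 3 RNY entries 33.3% to 66.7% and 33.3% to 100%. SCARNA entries summed to 709.5 to 1115 FPKM on day 30 and to 25.7 to 45.6 FPKM on day 4, whereas MIR entries summed to 2869 to 3481 FPKM and then to 9775 to 12118 FPKM.

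The proteins that bind, build and trim snoRNAs come from longer transcripts, whose FPKM is less coarse. Of 21 genes, 7 (33.3%) were higher in all day 30 libraries and 4 (19.0%) lower, near the 25.3% and 22.0% of all IDs. The C/D core gene NOP58 differed most between the days, with 95.4, 98.4, 112 and 100.6 FPKM on day 30 and 2.53, 1.51, 4.66 and 8.46 FPKM on day 4. Of its partners in the C/D particle, FBL, the methyltransferase fibrillarin, was between 351 and 471 FPKM and NHP2L1 (SNU13) between 173 and 244 FPKM, with overlapping days. NOP56 was at 127 to 139 FPKM on day 30 and at 169 to 193 FPKM on day 4. In the H/ACA core, DKC1, the pseudouridine synthase dyskerin, had 66.5 to 73.4 FPKM on day 30 and 43.6, 24.5, 49.4 and 59.5 FPKM on day 4. GAR1 had 20.8 to 34.9 FPKM and then 8.86 to 16.2 FPKM, and NHP2 and NOP10 overlapped between days.

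Against DMSO of day 30, none of the 21 genes reached 2-fold with any inhibitor, and the log2 ratios lay between -0.39 and 0.72. On day 4, NCD38 had 3 genes at least 2-fold lower, SHQ1, which chaperones dyskerin (log2 ratio -1.14), the nucleolar phosphoprotein gene NOLC1 (-1.12) and PARN, which trims H/ACA ends (-1.02), which is 14.3% of the genes against 2.80% of all IDs. NCD38-β2PIPP had 2 genes higher, NOP58 (1.42) and the cap hypermethylase gene TGS1 (1.13), 9.52% of the genes against 6.29% of all IDs, and NCD38-β2P4 had none. With NOP58 and TGS1, ZNHIT6, a C/D assembly factor, was at least 2-fold higher in DMSO of day 30 than of day 4, at 5.58 against 0.698 FPKM. These 3 genes are 14.3% of the list, near the 15.3% of all IDs. The assembly ATPase genes RUVBL1 and RUVBL2 ran the other way, with 43.5 to 47.8 and 121 to 135 FPKM on day 30 and 80.2 to 89.0 and 194 to 333 FPKM on day 4.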

How the data were processed

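For 8 stranded mRNA libraries, FPKM from Cufflinks were deposited, after mapping with TopHat according to the authors. The submitters' processing notes list HISAT2 2.2.1.0, Cufflinks and the build hg19, and how short transcripts were treated is not given in the sources used here. The 30 ChIP-seq samples were not analysed here. Members and gene lists were chosen with earlier results of these data known. Named members were, in each class, the 6 with the highest median, the 3 with the smallest and the 3 with the largest range among those above 0 throughout, the 3 with the highest FPKM among those with a 0, the 2 highest and 2 lowest ratios of each inhibitor, and those of known role. Entries named outside this rule (in lists of fragments, copies and days) were chosen after their values were seen.

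Python 3.11.15 with pandas 2.3.3, numpy 2.4.6, scipy 1.17.1 and pysam 0.24.0 was used. A pseudocount of 1 was added for ratios. The FPKM of 1 fragment was fitted per library with GENCODE lengths of 60 to 300 nt, and lengths of 55 to 300 nt were then tried for each entry. This step, added after the data were seen, was tested on simulated data. The simulation used the fragment length model of the fit, and each entry's true length was supplied when fragments were recovered. It could thus not test the choice among several lengths. Poisson and binomial intervals are exact, at 95%. A host gene was a protein-coding or long noncoding gene on the same strand whose body holds the whole entry. Where several did, the one with the highest mean FPKM was taken. SNORA73B was not in the table used. Of the alternatives, 11 were set first and 3 were added. One entry that the naming rule takes is not reported here.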

Additional observations from a re-analysis of the deposited data

Results flagged for a closer look

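The H/ACA total relative to DMSO pointed in opposite directions on the 2 days for 2 inhibitors. With NCD38, the log2 ratio of FPM (fragments per 1000000 mapped fragments) was 0.43 on day 30 and -0.32 on day 4. With NCD38-β2P4, it was 0.15 on day 30 and -0.32 on day 4. Each value comes from 1 library per condition, and the difference between the days was not tested. Of these 4 ratios, the counting interval left out 1 for NCD38 on day 30 alone.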

How the results depend on the processing

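Of 128 counts recomputed under alternatives, 92 stayed within 1.5 times and 36 did not. The counts of entries above 0 stayed so with a limit of 1 FPKM, of 0.001 FPKM and with repeated IDs kept, as did the counts above the host gene with the shortest host, and the 2-fold counts with a pseudocount of 0.1, a mean FPKM of at least 1 or rescaling by the median ratio. With a pseudocount of 10, on day 30 NCD38 had 19 higher, NCD38-β2P4 14 lower, and NCD38-β2PIPP 23 higher and 5 lower. On day 4, NCD38 had 18 and NCD38-β2P4 21 higher, and DMSO of day 30 had 30 above day 4. With entries above 0 in both libraries alone, higher and lower counts were 15 and 2, 9 and 3, and 19 and 4 on day 30, 12 and 4, 12 and 2, and 6 and 1 on day 4, and 15 and 11 between the DMSO libraries, by construction with fewer entries. Against DMSO of the other day, day 30 counts were 56 higher and 31 lower for NCD38, 41 higher for NCD38-β2P4 and 31 lower for NCD38-β2PIPP, and day 4 counts were 19 higher for NCD38 and 44 lower for NCD38-β2PIPP. In fragments plus 1 per 1000000, an alternative added after seeing the data, day 30 counts were 6 lower for NCD38, 18 higher and 9 lower for NCD38-β2P4, and 18 higher and 7 lower for NCD38-β2PIPP. On day 4 they were 19 higher and 21 lower for NCD38, 14 lower for NCD38-β2P4 and 11 lower for NCD38-β2PIPP, and 25 were higher in DMSO of day 30. This scale favours the shallower library of a comparison, since the added fragment weighs more per 1000000 there. For the other moves the cause was not tested. No paired analysis was possible because the conditions share fewer than 2 replicate numbers, and libraries were not paired by day or treatment, since their FPKM chose the entries. The median log2 ratios moved by over 1.5 times in 5 cases: after rescaling, -0.09 for NCD38-β2P4 on day 30, and 0.72 for NCD38 and 0.07 for NCD38-β2PIPP on day 4, and with a pseudocount of 10, 0.26 for NCD38-β2P4 and 0.12 for NCD38-β2PIPP on day 4. Depth limits all of this. For an entry of 72 nt, a count of 0 allows an expected count of up to 3 fragments. That was 175 to 322 FPKM on day 30 and 509.9 to 698 FPKM on day 4, if a listed 0 is not a failed estimate.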
